A study of Mus musculus with 2 samples.

Results

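Genes of the Wnt and Hedgehog pathways were examined in mouse liver after inhibition of miR-122, a microRNA abundant in hepatocytes. Members were taken by symbol: the Wnt, Fzd, Sfrp, Dkk, Dvl, Axin, Tcf7, Ptch and Gli families, together with Lef1, Ctnnb1, Apc, Rnf43, Znrf3, Lgr4, Lgr5, Lrp5, Lrp6, Smo, Sufu and Hhip. The rule found 61 genes among 18193 that had a probe set annotated to 1 gene, of which 54 belong to the Wnt pathway and 7 to the Hedgehog pathway. They were covered by 128 probe sets, and each gene was read on its brightest one by the geometric mean of both arrays. One of the 61, Fzd10os, is a transcript opposite Fzd10 and not a Frizzled receptor.

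One group of mice received antagomir-122, a chemically modified oligonucleotide complementary to miR-122, and the other received mm-antagomir-122, which the labels describe as a scrambled control. Both were injected on 3 days at 80 mg/kg per day, and livers were taken 24 h after the last dose. Total RNA of 3 livers was combined per group and hybridised to 1 single-colour array, so each value below is a pool on 1 array. There is no spread between animals to test against, and no p-value is given; strain, sex and age are not given in the sources used here.

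In Wnt signalling, a secreted Wnt protein binds a Frizzled receptor with Lrp5 or Lrp6, and a complex built on Axin and Apc then stops marking β-catenin for destruction, so that β-catenin can act with TCF/LEF factors on target genes. In liver this pathway is known to keep the gene programme of hepatocytes around the central vein. In Hedgehog signalling the ligand relieves the block that Ptch1 places on Smo, and Smo then acts through Sufu on the Gli factors, a pathway known in liver mainly from stellate cells and bile ducts.

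Signals are MAS5 intensities as deposited, in arbitrary units, and are given with the antagomir-122 pool first. The ratio is log2 of the antagomir-122 signal over the mm-antagomir-122 signal. A gene was taken as measured when the geometric mean of its signals reached 238, the 60th percentile of all probe sets other than array controls. Higher and lower are used for a change of at least 1.5-fold, and where 1 signal lay under this floor the fold is given against the floor as a lower bound. Where a gene had further probe sets over the floor, its top pair gave a spread of log2 ratios per probe set. This was 0.28 (SD, 3860 genes), or 0.35 for the lowest tercile of signal (588 genes). It is the SD of the difference within the pair, scaled down to a single probe set, so the differences themselves varied more. For genes under the floor the spread was 1.07 (2717 genes), so a ratio there carries little information.

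The arrays were alike in scale, with median signals of 172 and 156. The 18 probe sets for spiked hybridization controls had a median log2 ratio of -0.27, and scaling on them would add 0.27 to every ratio, so directions here are relative to the bulk of genes, whose median was 0.00 above the floor. The labelled tissue was checked on its markers, and 10 of 10 hepatocyte genes found were above the floor, with albumin (Alb) at 26554 and 26970.

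Of the 61 genes, 28 were above the floor (45.9%, against 55.0% of all genes), and 3 of those, Smo, Wnt7b and Apc, were higher in the antagomir-122 pool. Only Fzd8 among the 28 was lower. Across all 10003 genes above the floor, 5.12% were higher and 2.62% lower by this threshold. The member counts amount to 10.7% and 3.57%, but they rest on 3 genes and 1 gene. At 2-fold, 2 of the 28 were higher and 1 was lower, against 0.83% and 0.31% of all genes above the floor. In 24 genes both signals reached the floor, and of these 2 were higher and 1 lower, against 3.99% and 2.14% of all genes of that kind. The median log2 ratio of the 28 was 0.01, with 14 above 0 and 14 below. Within the probe set spread of 0.28 lay 16 of the 28 genes (57.1%), against 64.9% of all genes above the floor. Over all 61 genes with no floor, 10 were higher (16.4%, against 15.2% of all genes) and 4 lower (6.56%, against 9.42%), shares near those of the whole array.

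**Figure D1:**
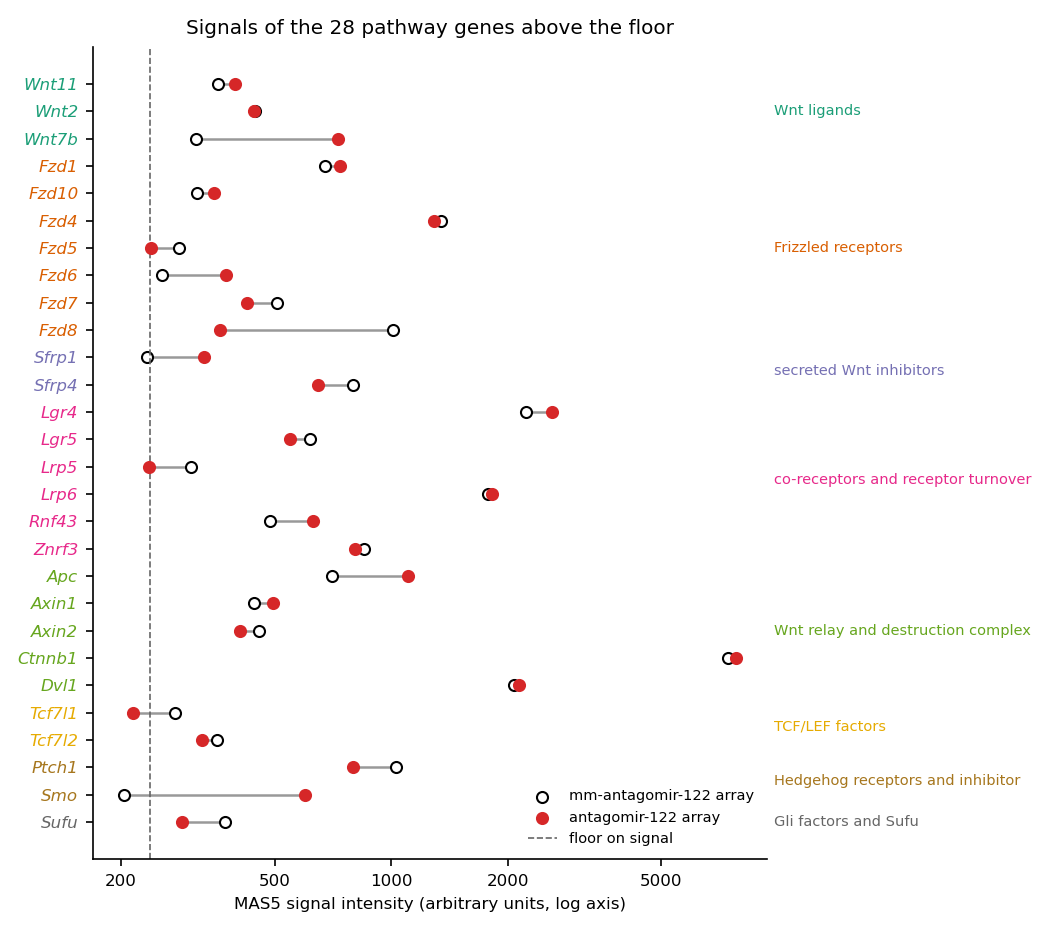
Signal on each array for the 28 genes above the floor, on a log axis in MAS5 units, grouped by role. Open circles are the mm-antagomir-122 array, filled circles the antagomir-122 array and the dashed line the floor of 238. Smo, Wnt7b and Fzd8 have the widest gaps, while Ctnnb1, Dvl1, Lrp6 and Wnt2 nearly coincide.

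Promoter sequence was read for 2 of the members above the floor, Smo because it had the largest ratio and Wnt11 because a TCF/LEF motif lies in its window. Each is the 250 bases before the gene's start in RefSeq (GRCm38.p6, plus strand), at chr6:29735247-29735496 for Smo and chr7:98834862-98835111 for Wnt11, which has 2 starts in the table. Capitals mark a match to CTTTGAT on either strand.
Smo: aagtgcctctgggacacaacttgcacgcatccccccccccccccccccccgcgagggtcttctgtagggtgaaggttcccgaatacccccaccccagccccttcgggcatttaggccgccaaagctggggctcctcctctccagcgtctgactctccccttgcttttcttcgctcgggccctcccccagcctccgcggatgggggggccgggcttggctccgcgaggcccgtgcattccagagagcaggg
Wnt11: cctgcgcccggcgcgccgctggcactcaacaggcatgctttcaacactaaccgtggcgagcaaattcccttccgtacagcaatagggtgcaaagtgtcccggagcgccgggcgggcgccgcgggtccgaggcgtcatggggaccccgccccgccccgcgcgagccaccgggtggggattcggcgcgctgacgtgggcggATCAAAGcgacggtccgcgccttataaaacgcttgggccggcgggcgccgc
The match in Wnt11 begins 51 bases before the start, on the reverse strand, and the GC content of the windows was 68.4% for Smo and 70.8% for Wnt11. CTTTGAT on either strand was found in 3.21% of 32851 promoter windows of this length and in 2 of 50 windows of 41 member genes, those of Wnt11 and Wnt5b. The Gli motif GACCACCCA, which does not overlap it, was found in 0.225% of all windows and in 0 of the 50. A match is a run of letters and not a measured binding site.

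Of the 19 Wnt ligand genes, 3 were above the floor. Wnt7b, which encodes a ligand of β-catenin signalling, had signals of 726.7 and 312.5 and was 2.33-fold higher in the antagomir-122 pool. Its second probe set went the other way, with 51.5 and 152.7, both under the floor. The change of Wnt7b was larger than the spread between probe sets but rests on 1 measured probe set. Wnt2, a ligand made by liver endothelial cells, had signals of 442.0 and 445.3 and so differed by less than that spread. Its log2 ratio of -0.01 becomes 0.26 when scaled on the hybridization controls. Wnt11, a ligand best known for signalling without β-catenin, had 395.7 and 356.8, a log2 ratio of 0.15.

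The other 16 ligand genes were under the floor, with signals from 2.8 to 256.5. On these dim values 5 were past 1.5-fold upwards (Wnt3, Wnt7a, Wnt9a, Wnt10a and Wnt10b) and 1, Wnt3a, downwards. Of all 8190 genes under the floor, 27.5% were past it upwards and 17.7% downwards, so the 5 of 16 lie near the background. Wnt3a, the ligand most used to activate the pathway in culture, had signals of 143.4 and 256.5, where the higher value only just clears the floor. Wnt5b had 185.7 and 176.1, and Wnt8b had 205.1 and 140.3. Wnt7a, a close relative of Wnt7b, read 245.3 and 80.9 on its brightest probe set but 19.2 and 80.2 on another and 4.1 and 10.5 on the last, so its probe sets pointed in opposite directions. Of the 8 dim ligands with several probe sets, 7 had all of them on the same side of 0, Wnt5b, Wnt6, Wnt8b, Wnt9a and Wnt9b above it and Wnt4 and Wnt5a below. This count was not made over all genes under the floor, so it has no background and is not read as a pattern of the ligands. The next 3 were picked out after their values were seen. All 4 probe sets of Wnt5a, the main ligand of signalling without β-catenin, had log2 ratios below 0, from -2.19 to -0.48. Both probe sets of Wnt9a lay above 0 (0.84 and 2.17), as did both of Wnt9b (0.39 and 2.68), a ligand of central vein endothelium. No probe set of these 3 genes reached the floor, where the spread is 1.07, so no level of these ligands is settled in either pool.

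**Figure D2:**
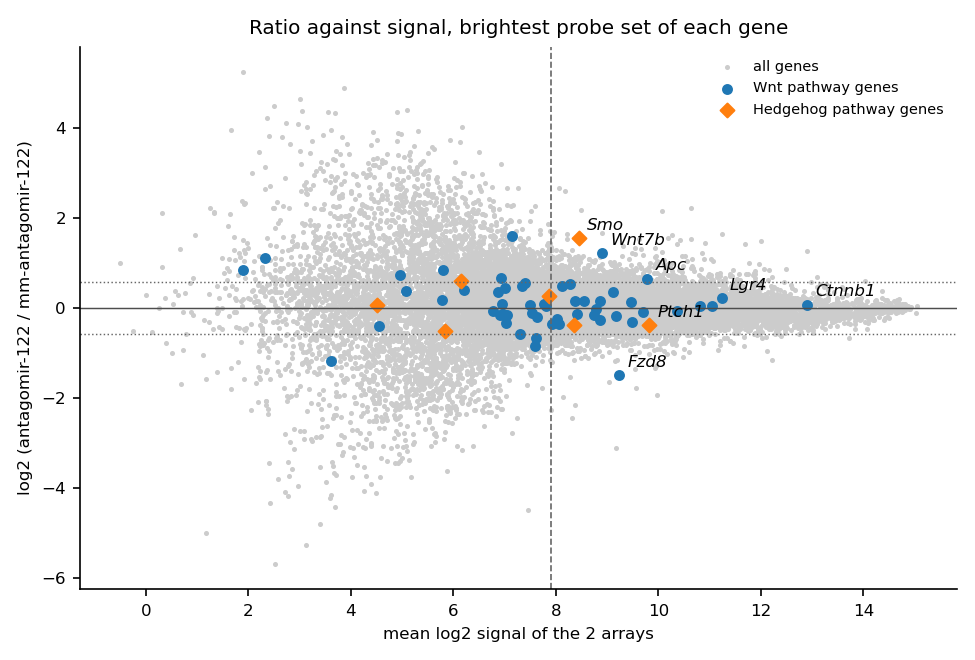
Log2 ratio of antagomir-122 over mm-antagomir-122 against mean log2 signal for the brightest probe set of each of 18193 genes (grey), with the 54 Wnt genes as circles and the 7 Hedgehog genes as diamonds. The dashed line is the floor and dotted lines mark 1.5-fold; above the floor Smo, Wnt7b and Apc lie beyond the upper dotted line and Fzd8 beyond the lower.

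Among the 10 Frizzled receptor genes, 7 were above the floor with both signals, 0 were higher and 1 was lower. Fzd8 had signals of 360.3 and 1010.0 and was 2.80-fold lower in the antagomir-122 pool, the lowest ratio of the 28 genes (log2 -1.49). Its other probe set, under the floor, read 96.2 and 104.9 and did not show this gap. The difference in Fzd8 exceeds the probe set spread on a single measured probe set. The remaining 6 were within 1.5-fold. Fzd6 came closest, at 373.4 and 255.9 (log2 0.55), but its other 2 probe sets, under the floor, had ratios of -0.52 and -0.62. When scaled on the hybridization controls, Fzd6 passes 1.5-fold (log2 0.82). Fzd4, which also serves as the receptor of the secreted protein norrin, had 1290.2 and 1346.8 on its brightest probe set and 1186.9 and 1323.2 on a second. Fzd1 had 739.4 and 675.4, Fzd10 had 349.2 and 315.0, Fzd7 had 423.7 and 506.0, and Fzd5 had 238.8 and 282.4. Each of these 5 lay within the 0.28 spread, and the ratios of Fzd4, Fzd5 and Fzd7, below 0 as deposited, turn above 0 when scaled on the hybridization controls. Fzd2, Fzd3 and Fzd9 were under the floor, with signals from 113.5 to 192.3, and the 6 probe sets of Fzd3 spread from -0.16 to 1.81. The opposite-strand transcript Fzd10os was under the floor too, at 224.2 and 209.3 on one probe set and 195.6 and 117.8 on the other, and its probe sets were read apart from those of Fzd10.

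Of the 8 secreted inhibitors of the Sfrp and Dkk families, which bind Wnt proteins or Lrp co-receptors, 2 were above the floor and neither was past 1.5-fold. Sfrp4 had signals of 646.0 and 795.1. Sfrp1 had 329.1 and 234.4 on a probe set with the suffix _x, which can cross-hybridise, a fold of at least 1.38. Its other 4 probe sets lay under the floor, 3 of them above 0 and 1 below. When scaled on the hybridization controls, Sfrp1 passes 1.5-fold (log2 0.76). The rest had signals from 3.4 to 226.8, among them Dkk3 with 226.8 and 218.6, Sfrp5 with 183.8 and 211.7, and Dkk1 with 132.9 and 104.4. The largest ratios in this group, those of Dkk2 (7.4 and 3.4) and Dkk4 (8.1 and 18.3), come from signals near the bottom of the scale and were singled out after they were seen.

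All 6 genes of the co-receptors and of receptor turnover were above the floor, and 0 of the 6 were past 1.5-fold. Lrp6, a co-receptor of Frizzled, had signals of 1820.3 and 1775.6, and its second probe set had 242.7 and 234.8, so its log2 ratios were 0.04 and 0.05. Lrp5, the other co-receptor, had 236.9 and 304.5, at least 1.28-fold apart. Lgr4, an R-spondin receptor that raises Wnt responsiveness, had 2606.5 and 2229.3. Lgr5, its relative and a Wnt target gene of hepatocytes next to the central vein, had 547.4 and 616.1. Rnf43 and Znrf3 encode ubiquitin ligases that remove Frizzled from the cell surface and are themselves Wnt targets. Rnf43 had 627.6 and 487.3 (log2 0.37), and Znrf3 had 805.2 and 849.5 (log2 -0.08). So neither these ligases nor the R-spondin receptors differed by 1.5-fold as deposited. When scaled on the hybridization controls, Rnf43 passes 1.5-fold (log2 0.64) and the signs of Lgr5 and Znrf3 turn.

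In the relay inside the cell, 5 of 7 genes were above the floor, 1 was higher and 0 were lower. β-catenin itself (Ctnnb1) had signals of 7803.2 and 7412.6, and its 3 probe sets, all above the floor, had log2 ratios from -0.02 to 0.07. Dvl1, an adaptor that carries the signal from Frizzled to Axin, had 2145.1 and 2073.9 on one probe set and 1894.4 and 1728.7 on the other. In both genes every probe set was above the floor, and the pools differed by less than the probe set spread. Apc, a scaffold of the destruction complex, had 1107.5 and 703.7 on its brightest probe set and was 1.57-fold higher there. The second had 585.5 and 543.5, and those under the floor read 145.9 and 212.0, and 70.4 and 109.2, so the 4 ran from -0.63 to 0.65. With the mean of the 2 probe sets above the floor the log2 ratio of Apc was 0.38, which is under 1.5-fold. Axin1, the other scaffold, had 495.0 and 442.9, and its second probe set 270.9 and 299.5. Axin2, a Wnt target gene often used to read out the pathway, had 407.8 and 455.8, a ratio of -0.16 that becomes 0.11 when scaled on the hybridization controls. Dvl2 (156.3 and 245.9) and Dvl3 (38.6 and 29.7) were under the floor.

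The 3 genes of the TCF/LEF factors gave 2 above the floor, both within 1.5-fold. Tcf7l2, the factor best known in adult liver, had 323.9 and 355.2, and its second probe set above the floor had 238.5 and 249.9. Its 2 other probe sets read 142.1 and 25.0, and 29.2 and 112.8, which put them at 2.51 and -1.95 while the measured pair lay at -0.13 and -0.07. The -0.13 of the brightest becomes 0.14 when scaled on the hybridization controls. Tcf7l1, mostly a repressor, had 215.5 and 276.2, at least 1.16-fold apart. Lef1, a factor prominent in lymphocytes, was under the floor with 125.2 and 138.5.

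Of the 7 Hedgehog genes, 3 were above the floor. Smo, the membrane protein that passes the signal on, had 598.2 and 203.3, at least 2.51-fold higher in the antagomir-122 pool and the highest ratio among the 28 genes. The control signal was under the floor, so Smo passed the filter through the antagomir-122 array. Its other 2 probe sets did not show the gap, at 194.1 and 213.0 and at 3.2 and 3.6, all under the floor. Ptch1, the receptor that restrains Smo and a target gene of the pathway, had 796.4 and 1031.2 (log2 -0.37), while its second probe set above the floor had 257.3 and 255.8. Sufu, which holds Gli factors back, had 287.8 and 370.9 on its brightest probe set and 229.7 and 226.0 on another. Gli1, the target gene most used as a readout of the pathway, was at 23.1 and 22.2. Gli3 had 258.4 and 213.0, just under the floor by its mean, and Gli2 had 47.8 and 67.7. Hhip, a decoy that binds the ligand and a target gene, was under the floor on 4 probe sets that ran from -0.86 to 2.41. So Smo stood apart on 1 probe set, while Ptch1 was within 1.5-fold and Gli1 and Hhip were too dim to be read.

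The probe sets of a gene set a limit on these values. Of the 61 genes, 42 had several probe sets, and in 17 of these every probe set had the same sign. Apc, Hhip, Tcf7l2, Wnt7a and Wnt7b had probe sets past 1.5-fold in opposite directions. Neither count was made over all genes, so no background stands beside them. More than 1 probe set cleared the floor in only 8 genes, and among them the spread was 0.20. In 3 of the 8, Apc, Axin1 and Ptch1, these probe sets lay farther apart than 0.28. Of the 4 genes past 1.5-fold, Apc alone had one.

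**Figure D3:**
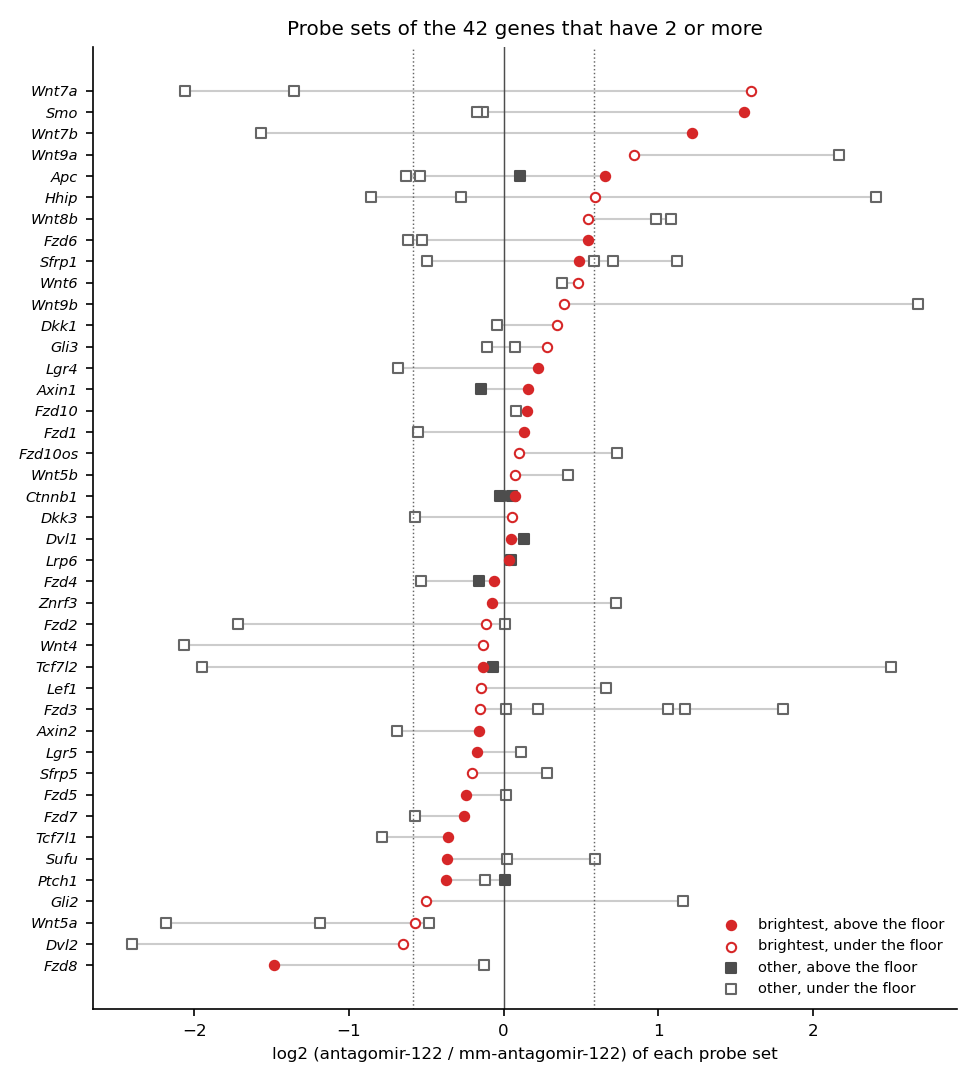
Log2 ratio of each probe set of the 42 genes with several, ordered by the brightest probe set (circles), with the others as squares, filled above the floor and open under it. In the 8 genes with several filled symbols these lie within 0.28 of each other in 5 (Ctnnb1, Dvl1, Fzd4, Lrp6 and Tcf7l2). They lie farther apart in Apc (0.55), Ptch1 (0.38) and Axin1 (0.31). The 0.28 refers to a single probe set, and gaps between a pair vary more. Open symbols reach from -2.40 for Dvl2 to 2.68 for Wnt9b.

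Other genes of the pathways, from lists written from general knowledge but with earlier results of these data known, lay mostly within 1.5-fold. Of 16 genes of β-catenin destruction and its kinases above the floor, 0 were past 1.5-fold (3 higher when scaled on the hybridization controls), with a median log2 ratio of 0.02; Fbxw11, a ubiquitin ligase subunit, had 3623.8 and 3613.5, and the kinase gene Csnk1a1 had 3047.5 and 3617.0. Of 17 nuclear partners of β-catenin 0 were past 1.5-fold, with a median of 0.02. The corepressor genes Tle5 (5845.4 and 6940.9) and Ctbp1 (3540.4 and 2379.9) were the brightest, and the count past 1.5-fold was 1 of 17 with quantile normalization or loess correction and 6 of 17, all higher, when scaled on the hybridization controls. Among 5 measured genes of Wnt secretion and extracellular control, 0 were higher and 1 lower. That was Ryk, a Wnt-binding receptor, at 641.2 and 964.4 (log2 -0.59), and its second probe set had 315.2 and 538.9. Ryk falls short of 1.5-fold when scaled on the hybridization controls. Notum, an enzyme that inactivates Wnt proteins, had 2427.9 and 2646.6, and Gpc4, a cell surface proteoglycan, had 2081.7 and 2292.8.

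Hepatocyte genes that depend on Wnt signalling around the central vein gave a median of -0.01 over 18 measured genes, with 1 higher and 0 lower (2 higher when scaled on the hybridization controls). Cyp2e1 and Cyp1a2, perivenous cytochromes P450, had 28135.3 and 27077.5, and 26339.6 and 23679.7, where the top of the scale can hide a difference. Glul, glutamine synthetase, added outside the naming rule as the textbook gene of this zone, had 9632.6 and 11947.5, and 7794 and 8164.3 on its second probe set. The higher gene was Cldn2, a claudin, at 2838.8 and 1883 (1.51-fold), but its second probe set had 1138.5 and 1247.2. Genes of the opposite, periportal zone had a median of -0.09 over 12 genes, with 0 higher and 1 lower. Cps1 and Arg1, of the urea cycle, had 25198.1 and 24808.1, and 20184.2 and 21758.4. The lower gene was Ass1, of the same cycle, with 245.3 and 531.4 on a dim probe set. Above 0 lay 9 of the 18 perivenous genes and 4 of the 12 periportal genes. The 0.28 spread is that of a single probe set, so it does not say how far a median over several genes can vary. The sign of both medians changes when scaled on the hybridization controls, that of the perivenous list also with quantile normalization and loess correction.

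For the Hedgehog pathway, 6 genes of ligands and their handling were measured, with 0 higher, 1 lower and a median of 0.27; scaled on the hybridization controls, 3 were higher. Gas1, a co-receptor for the ligand, had 633.2 and 1273.5 and was 2.01-fold lower, while its second probe set had 766.4 and 1031.3, a log2 ratio of -0.43. Its direction was therefore the same on both measured probe sets, while its last, under the floor, had 38.4 and 32.9. Disp2, a relative of the ligand release gene Disp1, had 348.8 and 301.1. The ligand genes themselves are added outside the naming rule. Shh was under the floor by its mean, at 53.9 and 370.5, and its second probe set had 20 and 62.1. Ihh (303.2 and 229.7) and Dhh (166.6 and 97.5, under the floor) went the other way on their brightest probe sets. Among 11 genes of the signal relay 2 were higher, Dync2h1, a motor of transport in the primary cilium, at 705.3 and 409.7 (1.72-fold), and Iqce, a ciliary protein gene, at 405.3 and 263.9 (1.54-fold). A second probe set of Iqce had 236 and 244, and with quantile normalization 1 of the 11 was higher. Csnk1a1, given above, and Prkacb, a catalytic subunit of protein kinase A (2185.9 and 1788.9), were the brightest of this list. Of 8 target genes found, only Foxf1 (355.7 and 414.0) and Ccnd2 (714.4 and 656.4) were measured, both within 1.5-fold.

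Wnt and Hedgehog genes are expressed in several cell types of liver, and in pooled tissue a change in the number of cells of a type and a change in RNA per cell cannot be told apart. Immune cell markers lay mostly towards the antagomir-122 pool, as did the brightest probe sets of Wnt7b, Smo and Apc. That of Fzd8 lay the other way, and the 28 members above the floor split into 14 above 0 and 14 below. The 11 Kupffer cell and macrophage markers above the floor had a median log2 ratio of 0.41, with C1qc and Adgre1 past 1.5-fold (2 genes), and the signals of all 12 summed to 61788.5 and 44972. Scaled on the hybridization controls, 9 of these 11 were past 1.5-fold. Neutrophil markers had a median of 1.09, with 5 of 8 higher (S100a8, S100a9, Ngp, Mpo and Ltf), while Elane had 260.7 and 323.3 (log2 -0.31). Mpo (399.6 and 164.2) and Ltf (367.6 and 197.8) had control signals under the floor and passed the filter through the antagomir-122 array. The filter therefore had a part in this count and median. The sums of the neutrophil markers were 35729.1 and 26899.7, most of it from Lcn2 (27382.5 and 24173.2), and 8346.6 and 2726.5 without it. Lymphocyte markers had a median of 0.59, with 3 of 6 higher (Ighm, Nkg7 and Ms4a1) and sums of 6984 and 4236.2. The count was 2 with quantile normalization or loess correction and 6 when scaled on the hybridization controls. Of the sums, 2784.5 and 1309 came from the brightest probe set of Ighm. Its others above the floor had log2 ratios of 0.27, 0.42 and 0.08, all under 1.5-fold. The second probe set of Ms4a1, under the floor, went the other way (28.7 and 61.6). The part of immune cells in the ratios of the Wnt and Hedgehog genes was not tested. Stellate cell and fibroblast markers, of cells that carry Hedgehog signalling, had a median of 0.08 over 12 genes, with sums of 28252.4 and 26214.4, and 0 were past 1.5-fold, though 1 was lower with quantile normalization or loess correction and 3 were higher when scaled on the hybridization controls. Endothelial markers had a median of 0.02 over 11 genes, with sums of 17021.5 and 17278.8, 0 higher and 2 lower, Tek and Emcn, or 0 lower when scaled on the hybridization controls. The 4 measured markers of central vein endothelium, Wnt2 among them, had a median of -0.05, and 0 were past 1.5-fold. Only 2 of 8 cholangiocyte markers found were above the floor. No signal of a marker was 0 in either pool, but the lowest value on either array was 0.1. This therefore tells nothing about which cell types were present.

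**Figure D4:**
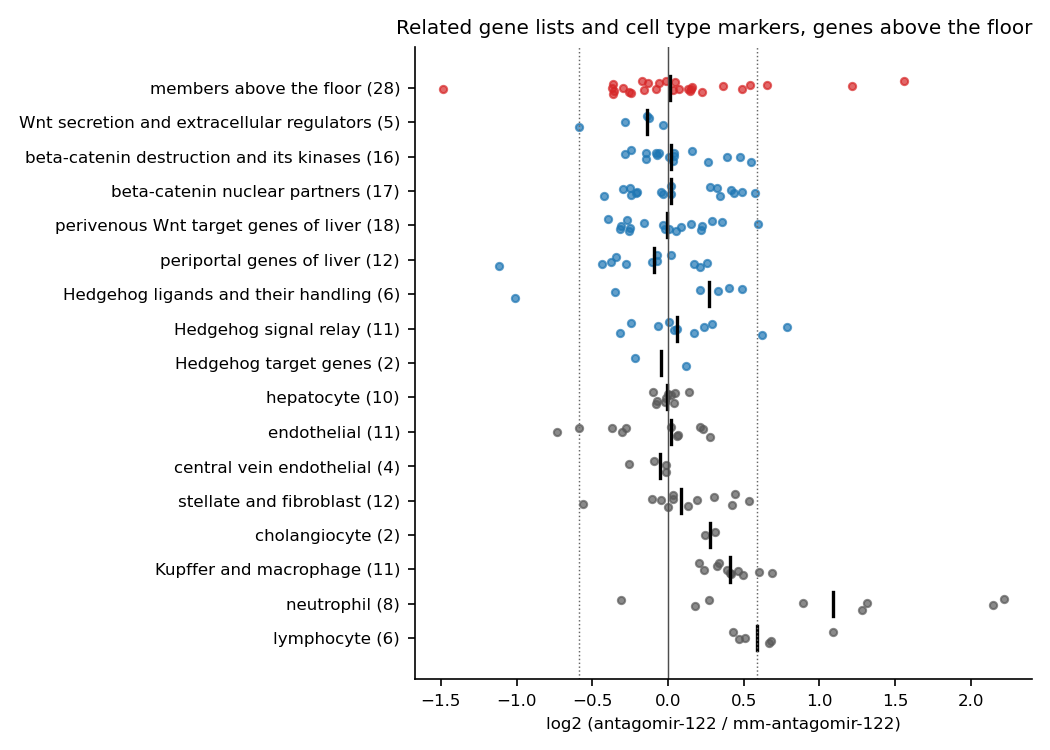
Log2 ratio of each gene above the floor (points, shifted at random in height for visibility) for the 28 members, 8 lists of related genes and 8 lists of cell type markers, with the number of genes in brackets, medians as black bars and 1.5-fold as dotted lines. Medians of the members, the pathway lists and the hepatocyte, endothelial and stellate markers lie between -0.14 and 0.27, and those of Kupffer cell, lymphocyte and neutrophil markers at 0.41, 0.59 and 1.09.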

How the data were processed

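The authors deposited 1 linear signal intensity per probe set and array, computed by MAS5 (version not given) per the submitters' processing notes. The 2% trimmed mean was 500.0 on both arrays, which shows a shared scaling. Detection calls were not used here, and with 1 array per group precision cannot be estimated from replicates. Gene names came from the platform annotation, which can be old. By gene identifier 34741 of 34945 single-gene probe sets matched the RefSeq table of GRCm38.p6, with 0 symbols changed. Of the 45101 probe sets, 932 with several genes and 9160 with none were not used.

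Ratios used no pseudocount. The threshold was 1.5-fold, and the floor, the brightest probe set and the probe set spread are defined in the text. Calculations used Python 3.11.15, pandas 2.3.3 and statsmodels 0.14.6 and were tested on simulated data. Both signals are given for members above the floor and those whose probe sets oppose each other past 1.5-fold, for up to 3 dim members per role, and for list genes past 1.5-fold or among the 2 brightest. Members and lists were chosen with earlier results of these data known. Alternatives covered scaling, floor, pseudocount, probe set choice and threshold.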

Additional observations from a re-analysis of the deposited data

How the results depend on the processing

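Of the 28 genes above the floor, 3 were higher and 1 lower. These counts stayed within 1.5 times under median centring, quantile normalization, loess correction, a pseudocount (37.8) and dropping suffixed probe sets. They also did so with dim signals raised to the floor, with both signals required above it, and at 2-fold. The same held for a mean over each gene's probe sets above the floor, which leaves genes with 1 such probe set unchanged. With dim probe sets averaged in, log2 ratios were -0.18 for Wnt7b, 0.42 for Smo, -0.10 for Apc and -0.81 for Fzd8. Of these, only Fzd8 was past 1.5-fold. Scaled on the hybridization controls, 6 of the 28 were higher, with Fzd6, Rnf43 and Sfrp1 added, against 16.9% of all genes above the floor. The median of the 28 was then 0.29, against 0.28 over all genes, by construction of the added shift. With the floor at the 40th percentile (49 genes) 5 were higher and 3 lower, against 8.80% and 4.02% of all genes above that floor. At the 80th (10 genes) 1 was higher and 0 lower, against 3.25% and 1.73%. With no floor (61 genes) 10 were higher and 4 lower, against 15.2% and 9.42%. At 1.4-fold 5 of the 28 were higher and 1 lower, against 8.16% and 4.85% of all genes above the floor. In 222 recalculations of single genes, none moved by as much as 0.28. This limit was partly met by construction, since scaling on the hybridization controls moves every gene by 0.27. The sign was the same under all 5 scalings in 20 of the 28 genes. Among the 61 genes, 33 could not be read above the floor. No paired analysis was possible because each group has 1 array, and for the same reason no replicate could be left out.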
